A study of Mus musculus with 6 samples.

Results

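The cytochromes P450 of families 1 to 3, the enzymes that oxidize most drugs and many steroids and fatty acids in the liver, were compared between mice expressing FXR-WT and mice expressing Y67F-FXR. All annotated genes whose symbol places them in family Cyp1, Cyp2 or Cyp3 were taken, except Cyp2c70, which hydroxylates bile acids in mice. This gave 61 of the 23284 genes in the count tables, in 16 subfamilies, and 41 of them had enough counts to be tested. The study asked how FXR, the nuclear receptor for bile acids, works when tyrosine 67 cannot be phosphorylated because it has been changed to phenylalanine (Y67F).

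Liver mRNA was measured by RNA-seq in 3 FXR-WT and 3 Y67F-FXR mice. All 6 animals were FXR-floxed males, 8 weeks old at injection, and all received AAV8-TBG-Cre, which is meant to delete the floxed FXR gene where the TBG promoter is active. FXR-WT mice received AAV8-TBG FXR-WT in the same injection, Y67F-FXR mice received AAV8-TBG Y67F-FXR, and the livers come from 4 weeks after injection, when the mice had eaten 0.5% cholic acid chow for 6 h. TBG drives expression in hepatocytes and not in other liver cells, and a group without FXR was not analysed here. Values are CPM, counts divided by the library size after trimmed-mean scaling. A gene was called when its p from the quasi-likelihood test of edgeR, adjusted by Benjamini-Hochberg, was below 0.05 and its fitted fold exceeded 1.5.

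P450 enzymes sit in the endoplasmic reticulum, hold a heme group and take their electrons from NADPH through P450 oxidoreductase (Por). In liver they are known to be switched on by foreign compounds through the receptors CAR (Nr1i3), PXR (Nr1i2) and AhR (Ahr), and bile acids can act on CAR and PXR as well as on FXR. Many of them differ between hepatocytes near the central vein and those near the portal tract, and several differ between male and female mice.

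The libraries held between 19551113 and 22053320 counts. Nr1h4, the gene of FXR, stood at 152, 209 and 198 CPM in FXR-WT livers 1 to 3 and at 169, 169 and 186 CPM in Y67F-FXR livers 1 to 3. The groups overlapped, and counts of the mouse gene and of the human transgene cannot be told apart, so these values do not check the labels. Hepatocyte markers summed to between 93990 and 116500 CPM in the 6 livers and those of pancreatic acinar cells were at 0. No tested marker of hepatocytes, cholangiocytes, Kupffer cells, leukocytes, stellate, endothelial or erythroid cells was called in either direction, where 0.972% of all tested genes were. Of the erythroid markers only 1 was tested, since Hba-a1 and Hbb-b1 were at 0 in all libraries. Across bulk livers, fewer cells of a type and less RNA per cell cannot be told apart. The labels do not say whether mice shared a litter or cage. The p-values set the difference between groups against the spread of livers within groups, and cannot account for a shared litter or cage.

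The 61 genes together took 1.92%, 3.18% and 2.79% of all counts in FXR-WT livers 1 to 3 and 3.07%, 2.76% and 3.05% in Y67F-FXR livers 1 to 3. FXR-WT liver 1 was the lowest of the 6 livers and the groups overlapped. Cyp2e1, which oxidizes ethanol and paracetamol, held 43.1% of the counts of these genes over all livers. Cyp3a11, a broad drug oxidase, held 11.8%, the Cyp2d subfamily 17.6%, Cyp2c 9.09% and Cyp2a 8.75%. Per kilobase of exon, the order of the mean levels was Cyp2e1 at 6919, Cyp3a11 at 1620, Cyp2d9 at 1439, Cyp2a5 at 959 and Cyp2d26 at 773 CPM per kb. The range of Cyp2d9 over the livers covered that of Cyp3a11, and the range of Cyp2a5 covered that of Cyp2d26, so these neighbours in the order did not differ beyond their spread.

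**Figure D1:**
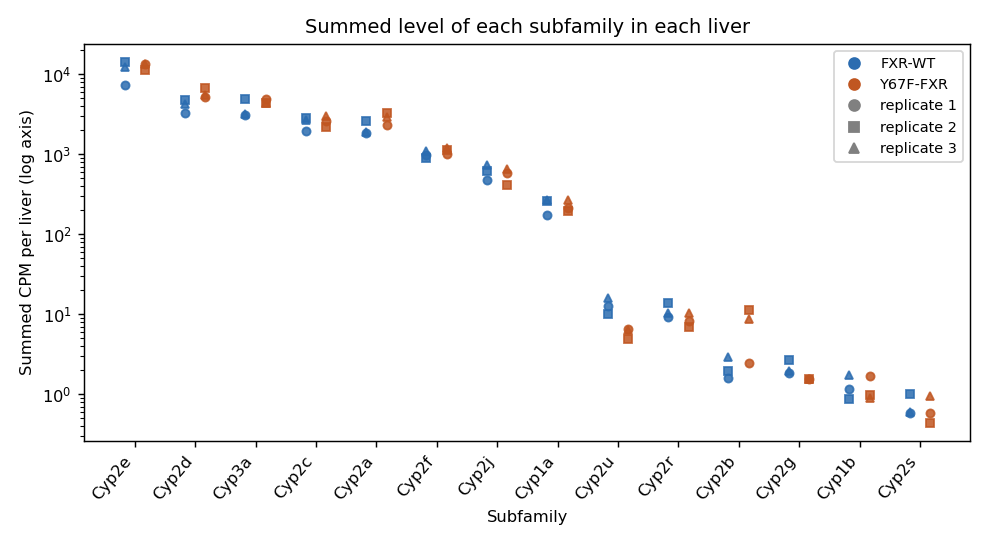
Summed CPM of each subfamily with a tested gene (log axis) in each liver, with FXR-WT in blue, Y67F-FXR in orange and replicate numbers as marker shapes. FXR-WT liver 1 was the lowest of all 6 livers for Cyp2e at 7345 CPM, and the 2 groups did not overlap for Cyp2d, Cyp2u and Cyp2g.

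Of the 41 tested genes, 1 was called lower in Y67F-FXR livers, Cyp2c67, and 0 were called higher. Over all 12453 tested genes, 0.426% were called lower and 0.546% higher, 0.972% together. At an unadjusted p below 0.05 there were 11 of the 41 genes, 5 lower and 6 higher, where 13.4% of all tested genes reached that level (6.67% lower and 6.75% higher). In 11 of the 41 genes the livers of the groups did not overlap, 6 lower and 5 higher, and over all tested genes that share was 20.6% (10.5% lower and 10.2% higher). DESeq2's Wald test called 4 lower (Cyp2c40, Cyp2c67, Cyp2c69 and Cyp2u1) and 1 higher (Cyp2b10) of the 40 that it gave an adjusted p, against 1.8% lower and 1.8% higher over the 11970 such genes. The median log2 fold change was 0.07 over the 41 genes and 0.01 over all tested genes, with 22 fitted higher and 19 lower.

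**Figure D2:**
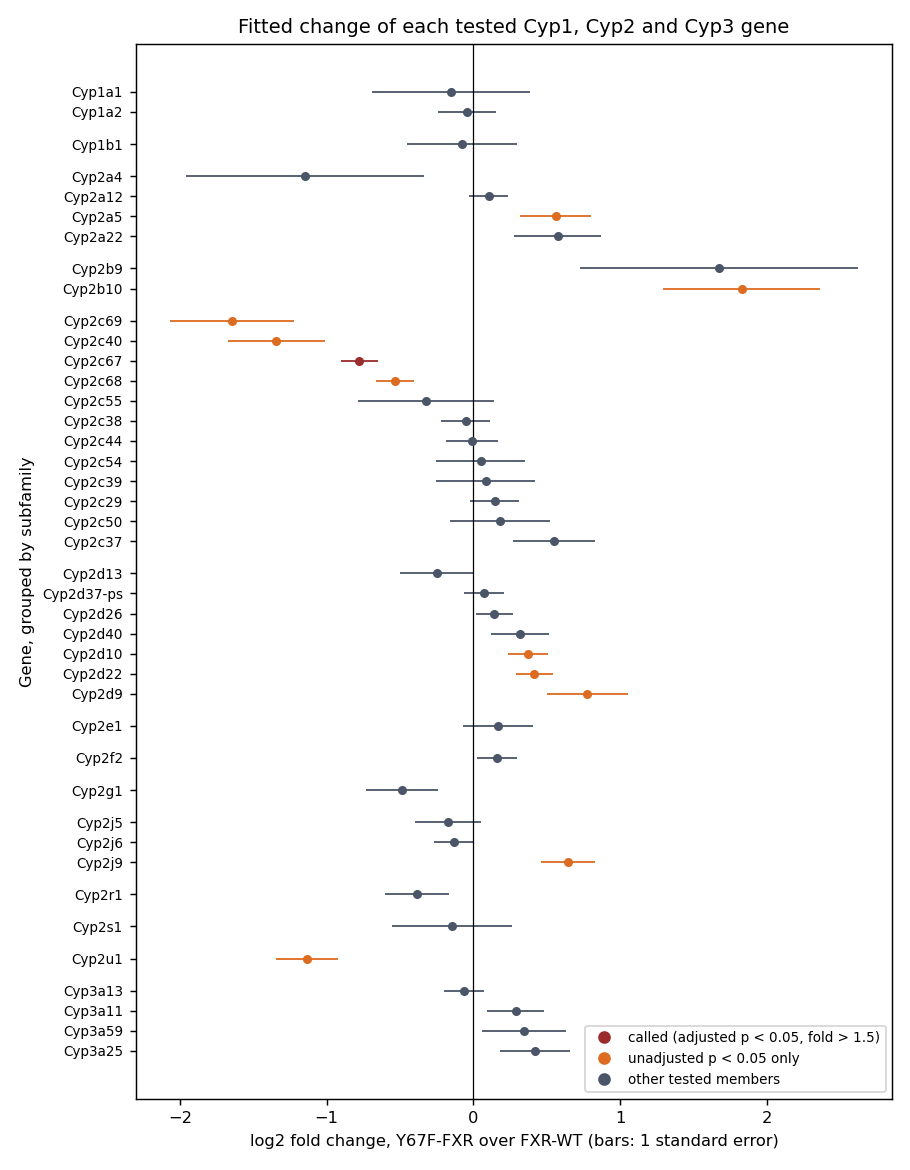
Fitted log2 fold change (Y67F-FXR over FXR-WT) of the 41 tested genes, grouped by subfamily, with bars of 1 standard error. Cyp2c67 is the gene called at -0.78, and the 10 further genes with an unadjusted p below 0.05 lie between -1.65 for Cyp2c69 and 1.83 for Cyp2b10.

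The Cyp2c enzymes oxidize drugs, arachidonic acid and steroids, and the mouse genome carries many copies of their genes on chromosome 19. Of the 15 Cyp2c genes, 4 neighbours (Cyp2c67, Cyp2c68, Cyp2c40 and Cyp2c69) lay lower in each Y67F-FXR liver than in each FXR-WT liver, and they were grouped here after their values had been seen. Cyp2c67 stood at 335, 290.5 and 265 CPM in FXR-WT livers 1 to 3 and at 172, 168 and 179 CPM in Y67F-FXR livers 1 to 3. Each Y67F-FXR liver lay below each FXR-WT liver, and the Y67F-FXR livers lay closer together than the FXR-WT livers. The mean fell from 297 ± 35.2 to 173 ± 5.62 CPM (SD, n = 3 each), a log2 fold change of -0.78 (SE 0.13, edgeR adjusted p = 0.0379). The call rests on all 6 livers, since leaving out any 1 of them gave an adjusted p between 0.0643 and 0.172 with the log2 fold change between -0.85 and -0.69.

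Cyp2c68, the next gene on the chromosome, stood at 252, 212 and 196 CPM in FXR-WT livers 1 to 3 and at 148, 159 and 148 CPM in Y67F-FXR livers 1 to 3. Its groups did not overlap and its log2 fold change was -0.53 (SE 0.13), but it was not called (edgeR adjusted p = 0.120). Cyp2c40 and Cyp2c69 are known for higher levels in female than in male mouse liver, and both were low in these males. Cyp2c40 stood at 2.64, 2.38 and 4.93 CPM in FXR-WT livers and at 1.31, 1.42 and 1.19 CPM in Y67F-FXR livers. Cyp2c69 stood at 2.84, 1.697 and 4.54 CPM in FXR-WT livers and at 1.36, 0.764 and 0.764 CPM in Y67F-FXR livers. Neither gene overlapped between groups, with log2 fold changes of -1.34 (SE 0.33, edgeR adjusted p = 0.124) for Cyp2c40 and -1.65 (SE 0.42, edgeR adjusted p = 0.137) for Cyp2c69. These 2 genes were called by DESeq2 but not by edgeR.

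The counts of these 4 genes summed to 592, 507 and 470 CPM in FXR-WT livers 1 to 3 and to 322, 330 and 330 CPM in Y67F-FXR livers 1 to 3. The means were 523 ± 62.4 and 327 ± 4.33 CPM (SD, n = 3 each). The other 11 Cyp2c genes summed to 1963 ± 532 CPM in FXR-WT and 2242 ± 410 CPM in Y67F-FXR livers (SD, n = 3 each), and their groups overlapped. Among these 11, the 8 with enough counts had log2 fold changes between -0.32 for Cyp2c55 and 0.55 for Cyp2c37. With 1 liver left out Cyp2c55 ran from -0.66 to -0.07 and Cyp2c37 from 0.27 to 0.77. Since the 4 were set apart by their values, these figures are a description only. Cyp2c29 had the highest level of the subfamily per kilobase, 337 CPM per kb, and stood at 503, 684 and 525 CPM in FXR-WT livers and at 593, 562 and 738 CPM in Y67F-FXR livers. Its groups overlapped and the 95% interval of its log2 fold change ran from -0.24 to 0.53.

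**Figure D3:**
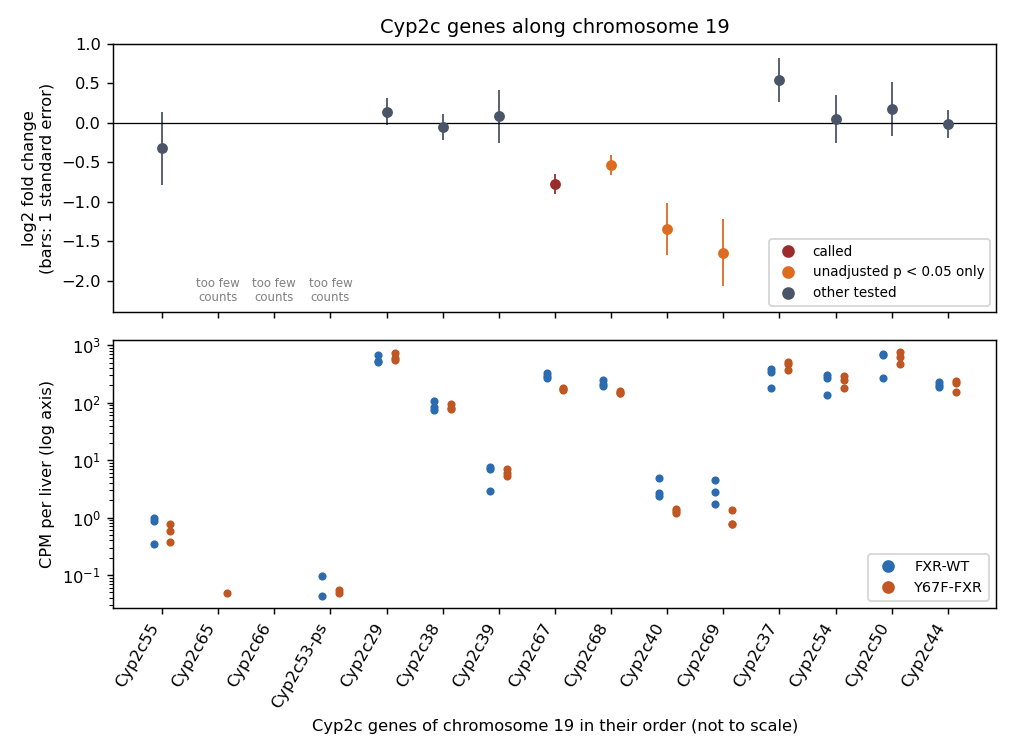
The 15 Cyp2c genes in their order on chromosome 19 (not to scale), with the log2 fold change and 1 standard error above and the CPM in each liver (log axis) below, with zeros left out. The 4 lower genes are neighbours, at -0.78, -0.53, -1.34 and -1.65 from Cyp2c67 to Cyp2c69, and the tested genes on both sides have error bars that reach 0 or lie above it.

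In the mm9 annotation of the count tables these 4 genes follow each other on the minus strand of chromosome 19, with Cyp2c67 at chr19:39683349-39723532, Cyp2c68 at chr19:39763326-39815591, Cyp2c40 at chr19:39841563-39887304 and Cyp2c69 at chr19:39917150-39961259. Their coding sequences were 96.54% to 98.1% identical to each other and 71.89% to 79.66% identical to those of the 9 other Cyp2c genes that could be compared, Cyp2c44 and Cyp2c53-ps being left out for want of a coding sequence under that name. Windows of 100 bases that occur unchanged in another gene made up 23.7% of the transcript of Cyp2c67, 19.82% of Cyp2c68, 44.13% of Cyp2c40 and 36.26% of Cyp2c69. Reads that map to several genes were left out of the counts, so the levels of these 4 are too low by an unknown amount and their separate values are uncertain. Their summed level rests on the same reads.

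The regions before the 4 genes are shown because the copies are much alike there too. The RefSeq table held promoters (250 bases before to 50 after the gene start, build GRCm38.p6) for 51 of the 61 genes. All of the following were read 5′ to 3′ on the minus strand, with Cyp2c67 at chr19:39648993-39649292, Cyp2c68 at chr19:39741052-39741351, Cyp2c40 at chr19:39812765-39813064 and Cyp2c69 at chr19:39886720-39887019. Capitals mark the letters CAAAGTCCA, a usual form of the site of HNF4, a nuclear receptor that many hepatocyte genes depend on.
Cyp2c67: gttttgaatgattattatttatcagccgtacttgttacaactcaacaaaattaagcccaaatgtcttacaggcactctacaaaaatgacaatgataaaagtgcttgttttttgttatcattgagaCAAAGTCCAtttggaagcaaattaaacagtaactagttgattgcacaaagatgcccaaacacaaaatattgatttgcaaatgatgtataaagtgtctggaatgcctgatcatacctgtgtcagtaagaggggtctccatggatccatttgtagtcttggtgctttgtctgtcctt
Cyp2c68: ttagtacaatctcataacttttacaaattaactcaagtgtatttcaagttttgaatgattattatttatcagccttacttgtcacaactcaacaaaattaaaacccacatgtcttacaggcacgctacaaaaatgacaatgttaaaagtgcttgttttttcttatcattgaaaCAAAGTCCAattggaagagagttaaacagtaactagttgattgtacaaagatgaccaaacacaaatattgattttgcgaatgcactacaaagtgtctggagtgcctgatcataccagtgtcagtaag
Cyp2c40: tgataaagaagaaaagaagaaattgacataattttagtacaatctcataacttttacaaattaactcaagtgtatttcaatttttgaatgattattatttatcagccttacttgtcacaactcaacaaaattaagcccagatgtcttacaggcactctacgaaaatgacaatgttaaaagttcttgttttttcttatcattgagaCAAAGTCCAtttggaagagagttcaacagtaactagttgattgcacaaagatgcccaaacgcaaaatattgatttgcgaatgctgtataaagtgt
Cyp2c69: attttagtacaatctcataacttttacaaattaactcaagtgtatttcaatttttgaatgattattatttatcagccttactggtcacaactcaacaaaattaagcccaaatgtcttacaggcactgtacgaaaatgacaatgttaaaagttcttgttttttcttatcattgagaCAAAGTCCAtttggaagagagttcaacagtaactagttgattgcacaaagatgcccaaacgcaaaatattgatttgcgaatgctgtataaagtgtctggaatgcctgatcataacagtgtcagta

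Aligned in pairs over their best-matching stretch, these 4 promoters were 91.63% to 98.89% identical, over 219 to 296 bases. Against those of Cyp2c29, Cyp2c37, Cyp2c38 and Cyp2c50 they were 65.49% to 73.36% identical, over 159 to 273 bases. The HNF4-type letters, searched on both strands and chosen after the sequences had been read, started at positions -125, -77, -45 and -75 from the gene start in Cyp2c67, Cyp2c68, Cyp2c40 and Cyp2c69. They were found in 156 of 32851 promoters of the table (0.475%) and in those of 9 of the 51 genes, the other 5 being Cyp2c65, Cyp3a11, Cyp3a16, Cyp3a41a and Cyp3a41b. Since the letters were taken from 4 promoters that are much alike, these shares are a description and cannot show an enrichment. Of these 5 genes Cyp3a11 alone was tested, and its log2 fold change was 0.29. The inverted repeat of AGGTCA with 1 base between, which FXR is known to bind, was searched without mismatches on both strands and found in 0 of the 51 and in 3 of all 32851 promoters (0.009%), which says only that these letters are not in the windows.

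Cyp2u1, which hydroxylates long-chain fatty acids, is the 5th gene that was lower at an unadjusted p below 0.05. It stood at 12.8, 10.1 and 16.1 CPM in FXR-WT livers 1 to 3 and at 6.51, 4.91 and 6.30 CPM in Y67F-FXR livers 1 to 3. The groups did not overlap and the log2 fold change was -1.14 (SE 0.21), just outside the call with an edgeR adjusted p of 0.0576. The gene lies at chr3:130993409-131006145 (mm9, minus strand), and no counted gene shares its exon bases. In GENCODE M21, the gene 4930534D22Rik on the opposite strand shares 548 exon bases with Cyp2u1. It is not among the counted genes, and in unstranded counts reads of the 2 strands cannot be told apart. It was called by DESeq2, without the filter on low counts and with the gene length offset.

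**Figure D4:**
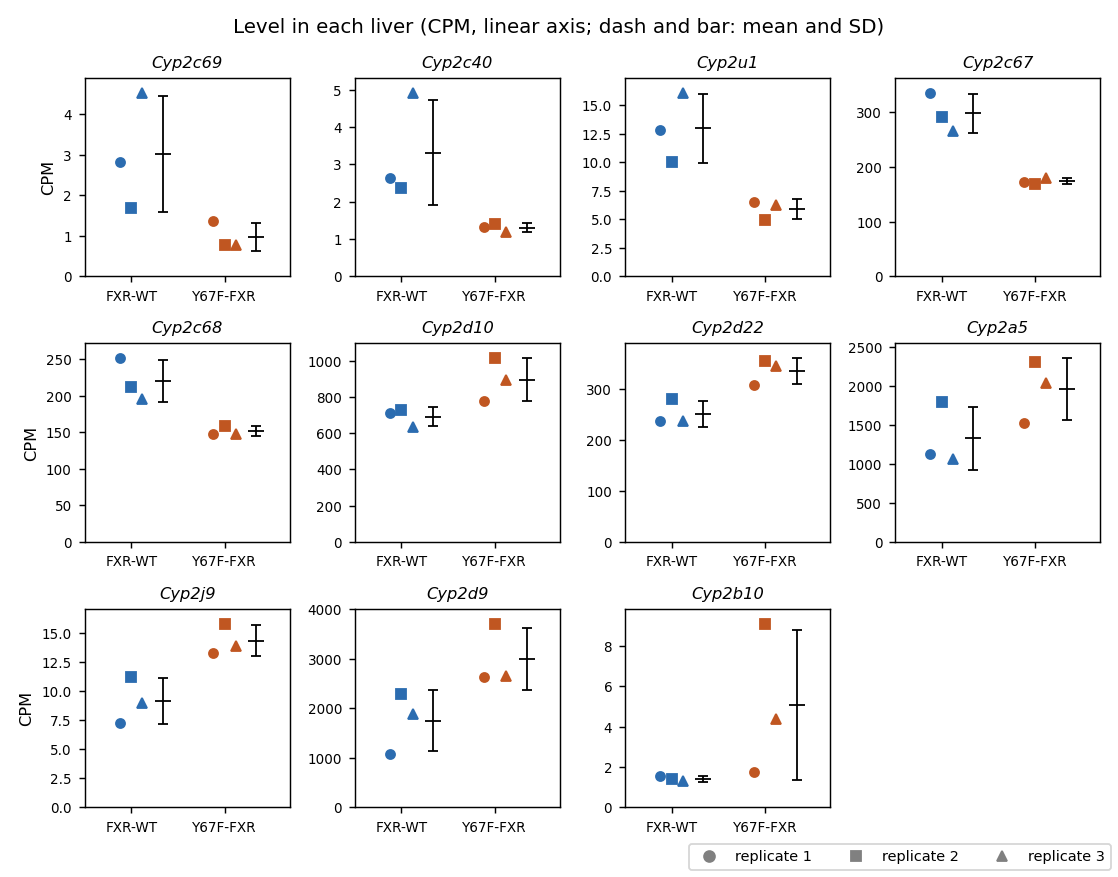
CPM in each liver (linear axes from 0) of the 11 genes with an unadjusted p below 0.05, with marker shapes for the replicate number and a dash and bar for the mean and SD of each group. The groups are separate in 10 of the 11 panels and overlap for Cyp2a5, and the Y67F-FXR livers range from 1.75 to 9.11 CPM for Cyp2b10.

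Among the 6 genes that were higher at an unadjusted p below 0.05, 3 belong to the Cyp2d subfamily of chromosome 15, relatives of the human drug oxidase CYP2D6. Cyp2d9, a testosterone hydroxylase of male mice, stood at 1074, 2289 and 1891 CPM in FXR-WT livers 1 to 3 and at 2634, 3713 and 2653 CPM in Y67F-FXR livers 1 to 3. Its groups did not overlap, and the log2 fold change was 0.78 (SE 0.28, edgeR adjusted p = 0.270). Cyp2d10 stood at 712, 730 and 634 CPM in FXR-WT livers and at 779, 1014 and 893 CPM in Y67F-FXR livers, again without overlap. Cyp2d22 stood at 236, 280 and 237 CPM in FXR-WT livers and at 306, 354 and 343 CPM in Y67F-FXR livers, also apart. Their log2 fold changes were 0.37 for Cyp2d10 (SE 0.14, edgeR adjusted p = 0.294) and 0.42 for Cyp2d22 (SE 0.13, edgeR adjusted p = 0.198), so no Cyp2d gene was called.

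Of the 10 Cyp2d genes 7 were tested and 6 of the 7 were fitted higher, as were 6474 of all 12453 tested genes. The median of the 7 was 0.32 (log2). Without FXR-WT liver 1, 5 of the 7 were fitted higher and the median was 0.16, and without Y67F-FXR liver 1 the median was 0.46. Cyp2d13 was fitted lower at -0.25, from -0.48 without FXR-WT liver 1 to -0.04 without FXR-WT liver 3. The subfamily summed to 3276, 4797 and 4278 CPM in FXR-WT livers 1 to 3 and to 5164, 6626 and 5536 CPM in Y67F-FXR livers 1 to 3. Each Y67F-FXR liver lay above each FXR-WT liver, with means of 4117 ± 773 and 5776 ± 760 CPM (SD, n = 3 each), for which no test was run. Most of that difference lay in Cyp2d9, with means of 1751 and 3000 CPM. Cyp2d13, Cyp2d26, Cyp2d37-ps and Cyp2d40 overlapped between groups. Cyp2d10 shared 14.85% of its transcript windows with other genes and Cyp2d9 shared 9.86%.

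Cyp2b10, the gene most often used as a readout of CAR, was near the lower end of what was tested. It stood at 1.57, 1.41 and 1.30 CPM in FXR-WT livers 1 to 3 and at 1.75, 9.11 and 4.39 CPM in Y67F-FXR livers 1 to 3. The FXR-WT livers lay close together, Y67F-FXR liver 1 was just above them and the other two were well above. The log2 fold change was 1.83 (SE 0.54, edgeR adjusted p = 0.181), which was called by DESeq2 alone. Leaving out 1 liver at a time gave values from 1.10 without Y67F-FXR liver 2 (edgeR adjusted p = 0.309) to 2.24 without Y67F-FXR liver 1 (edgeR adjusted p = 0.0593), none called. In Y67F-FXR liver 2, where Cyp2b10 was highest, Kupffer cell markers summed to 279 CPM against 96.7 to 179 CPM in the other 5 livers and stellate cell markers to 136 CPM against 189 to 203 CPM, and the part of these in the result was not tested. Cyp2b9, a female-biased gene near it on chromosome 7, stood at 0, 0.533 and 1.56 CPM in FXR-WT livers and at 0.632, 2.02 and 4.201 CPM in Y67F-FXR livers, and its groups overlapped. The other 3 Cyp2b genes, Cyp2b13, Cyp2b19 and Cyp2b23, had too few counts.

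Cyp2a5, which oxidizes coumarin and nicotine, stood at 1127, 1797 and 1065 CPM in FXR-WT livers 1 to 3 and at 1528, 2317 and 2037 CPM in Y67F-FXR livers 1 to 3. FXR-WT liver 2 lay within the Y67F-FXR range, and the log2 fold change of 0.56 was not called (SE 0.24, edgeR adjusted p = 0.369). The remaining Cyp2a genes had overlapping groups, with log2 fold changes of 0.57 for Cyp2a22, 0.10 for Cyp2a12 and -1.15 for the female-biased Cyp2a4. Cyp2a22 was at 0.28 without FXR-WT liver 1 and at 0.94 without FXR-WT liver 3. The value of Cyp2a4 rests on FXR-WT liver 1, which stood at 3.33 CPM against 0.173 to 1.115 CPM in the other 5 livers, and it was 0.11 without that liver. Cyp2a4 and Cyp2a5 shared 11.17% and 14.37% of their transcript windows with other genes, mostly each other.

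The Cyp2j enzymes make epoxides of arachidonic acid. Cyp2j9 stood at 7.29, 11.2 and 9.03 CPM in FXR-WT livers 1 to 3 and at 13.3, 15.8 and 13.9 CPM in Y67F-FXR livers 1 to 3. The groups did not overlap and the log2 fold change was 0.64 (SE 0.18, edgeR adjusted p = 0.168), not called. Cyp2j5, the Cyp2j gene with the highest level per kilobase at 140 CPM per kb, stood at 421, 550.0 and 649 CPM in FXR-WT livers and at 511, 351 and 576 CPM in Y67F-FXR livers. Its groups overlapped, with a log2 fold change of -0.17 that ran from -0.33 without FXR-WT liver 1 to -0.0029 without Y67F-FXR liver 2. A list of 7 epoxygenase genes held Cyp2c29, Cyp2c38, Cyp2c39, Cyp2c44, Cyp2j5, Cyp2j6 and Cyp2j9. It left out other tested Cyp2c genes, among them Cyp2c37, Cyp2c50 and Cyp2c54, which were fitted higher. Of the 7 listed, all tested, 4 were fitted lower, and Cyp2j9 alone had an unadjusted p below 0.05. Their median was -0.0081, from -0.17 without FXR-WT liver 1 to 0.12 without FXR-WT liver 2.

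The 2 most abundant genes did not separate the groups. Cyp2e1 stood at 7345, 14170 and 12440 CPM in FXR-WT livers 1 to 3 and at 13390, 11280 and 13450 CPM in Y67F-FXR livers 1 to 3. FXR-WT liver 1 was the lowest, and the other 5 livers lay between 11280 and 14170 CPM. The log2 fold change was 0.17 with a 95% interval from -0.38 to 0.72 (edgeR adjusted p = 0.845), and it turned to -0.07 without FXR-WT liver 1. Cyp3a11 stood at 2524, 3970 and 2499 CPM in FXR-WT livers and at 3848, 3588 and 3533 CPM in Y67F-FXR livers. FXR-WT liver 2 was the highest of all 6 and the other FXR-WT livers were the lowest, and the log2 fold change was 0.29 with a 95% interval from -0.17 to 0.74 (edgeR adjusted p = 0.618). Of the 4 tested Cyp3a genes 0 had an unadjusted p below 0.05, with log2 fold changes of 0.42 for Cyp3a25, 0.35 for Cyp3a59 and -0.07 for Cyp3a13. With 1 liver left out these ran from 0.21 to 0.67 for Cyp3a25, from 0.08 to 0.70 for Cyp3a59 and from -0.13 to 0.058 for Cyp3a13, and Cyp3a11 ran from 0.17 to 0.54.

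Cyp1a2, the AhR-responsive enzyme that oxidizes caffeine, stood at 174, 259 and 264 CPM in FXR-WT livers 1 to 3 and at 213, 196 and 269 CPM in Y67F-FXR livers 1 to 3. The groups overlapped and the log2 fold change was -0.04 with a 95% interval from -0.50 to 0.41. The other AhR-responsive genes had few counts. Cyp1b1 stood at 1.17, 0.873 and 1.73 CPM in FXR-WT livers and at 1.701, 0.982 and 0.907 CPM in Y67F-FXR livers. Cyp2s1 stood at 0.587, 1.02 and 0.605 CPM in FXR-WT livers and at 0.583, 0.436 and 0.955 CPM in Y67F-FXR livers, and Cyp1a1 lay between 0.334 and 1.36 CPM over the 6 livers. All 4 overlapped between groups, with log2 fold changes between -0.15 and -0.04. With 1 liver left out Cyp1a1 ran from -0.78 without Y67F-FXR liver 2 to 0.23 without Y67F-FXR liver 3, and the other 3 genes also changed sign.

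In the subfamilies with a single gene, Cyp2f2, which marks hepatocytes near the portal tract, stood at 984, 894 and 1101 CPM in FXR-WT livers 1 to 3 and at 1002, 1131 and 1201 CPM in Y67F-FXR livers 1 to 3. Its groups overlapped, with a log2 fold change of 0.16 (0.09 to 0.24 with 1 liver left out) and a 95% interval from -0.15 to 0.47. Cyp2r1, a vitamin D 25-hydroxylase, stood at 9.09, 13.7 and 10.5 CPM in FXR-WT livers and at 8.12, 6.82 and 10.4 CPM in Y67F-FXR livers. The groups overlapped at -0.39 (log2), from -0.56 to -0.21 with 1 liver left out. Cyp2g1 stood at 1.86, 2.67 and 1.94 CPM in FXR-WT livers and at 1.56, 1.53 and 1.53 CPM in Y67F-FXR livers. Its groups did not overlap, but the log2 fold change of -0.49 had an edgeR adjusted p of 0.453. With 1 liver left out Cyp2g1 ran from -0.58 to -0.31.

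Of the 8 genes known for high levels near the central vein (Cyp1a2, Cyp2a5, Cyp2c29, Cyp2c37, Cyp2c50, Cyp2c54, Cyp2e1 and Cyp3a11), 0 were called (0.972% of all tested genes) and 7 were fitted higher in the Y67F-FXR group (6474 of all 12453 tested), the median of the 8 being 0.17 (log2). FXR-WT liver 1 was the lowest of the 6 livers in 6 of these 8 genes and in 20 of the 41 tested. Without this liver the median was -0.0067 and 4 of the 8 were fitted lower, and it was 0.38 without FXR-WT liver 2 and 0.08 without Y67F-FXR liver 3. In the same liver the genes of up to 1598 bases stood 0.20 above their mean over the livers (median, log2), against -0.20 to 0.22 in the other 5 livers, and the tested P450 genes had a median exon length of 1857 bases against 2818 over all tested genes. The part of gene length in these values was not tested beyond the length offset, which left the median of the 8 genes at 0.18.

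Of the 6 genes known to respond to CAR and PXR (Cyp2b10, Cyp2c29, Cyp2c37, Cyp2c55, Cyp3a11 and Cyp3a13), 0 were called by edgeR (0.972% of all tested genes) and 1, Cyp2b10, by DESeq2, 4 were fitted higher and the median log2 fold change was 0.22, from 0.12 without FXR-WT liver 1 to 0.42 without FXR-WT liver 2. Cyp2b10 alone had an unadjusted p below 0.05. Of the 10 genes known for higher levels in female liver 5 could be tested, from -1.65 for Cyp2c69 to 1.67 for Cyp2b9, 3 of them fitted lower. Cyp2b9 was at 0.89 without Y67F-FXR liver 3 and at 3.07 without FXR-WT liver 3. The median of the 5 was -1.15 (log2) with all livers, -0.24 without FXR-WT liver 1 and -0.70 with the replicate number as a block. Cyp2c40 and Cyp2c69 had an unadjusted p below 0.05. The 5 others, Cyp2b13, Cyp3a16, Cyp3a41a, Cyp3a41b and Cyp3a44, had too few counts in these male livers.

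In all, 20 of the 61 genes did not pass the filter on low counts. Cyp2b23, Cyp2c66, Cyp2j11, Cyp2j12, Cyp2j13, Cyp2w1 and Cyp3a41b were at 0 in all 6 libraries. The other 13 (Cyp2b13, Cyp2b19, Cyp2c53-ps, Cyp2c65, Cyp2d11, Cyp2d12, Cyp2d34, Cyp2j8, Cyp2t4, Cyp3a16, Cyp3a41a, Cyp3a44 and Cyp3a57) had at most 11 counts in a library, reached by Cyp2d11. Cyp3a41a and Cyp3a41b share exon bases in the annotation, and 90.82% and 88.24% of their transcript windows occur in another gene, so that a count of 0 there says little about their RNA.

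Among the genes of proteins that P450 enzymes depend on, Por and Alas1 were called higher. Por, the reductase that hands electrons to all of these enzymes, stood at 449, 608 and 468 CPM in FXR-WT livers 1 to 3 and at 1015, 1326 and 1151 CPM in Y67F-FXR livers 1 to 3. The groups lay far apart, and the mean rose from 508 ± 87.1 to 1164 ± 156 CPM (SD, n = 3 each), a log2 fold change of 1.20 (SE 0.17, edgeR adjusted p = 0.0244). Leaving out 1 liver at a time gave an adjusted p between 0.0409 and 0.107, and the call was kept only without FXR-WT liver 2 or Y67F-FXR liver 1. Of the 6 tested electron transfer genes, Por alone was called, where 0.972% of all tested genes were. Cyb5b, the cytochrome b5 of the outer mitochondrial membrane, had a log2 fold change of -0.47 (SE 0.15, edgeR adjusted p = 0.234).

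Alas1, the rate-limiting enzyme of heme synthesis in liver, stood at 792, 860.0 and 722 CPM in FXR-WT livers 1 to 3 and at 1377, 1329 and 1531 CPM in Y67F-FXR livers 1 to 3. The groups did not overlap, and the mean rose from 791 ± 68.8 to 1412 ± 106 CPM (SD, n = 3 each), a log2 fold change of 0.84 (SE 0.13, edgeR adjusted p = 0.0333). With any 1 liver left out it was no longer called, with an adjusted p between 0.0585 and 0.141. Of the 12 genes of heme synthesis and breakdown, Alas1 alone was called, where 0.972% of all tested genes were, and the median log2 fold change was 0.08 (0.04 to 0.19 with 1 liver left out). Uros, the uroporphyrinogen III synthase, was at -0.42 (SE 0.15, edgeR adjusted p = 0.282) and Blvrb, a biliverdin reductase, at 0.31 (SE 0.13, edgeR adjusted p = 0.361). With 1 liver left out Uros ran from -0.50 to -0.27 and Blvrb from 0.20 to 0.40.

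**Figure D5:**
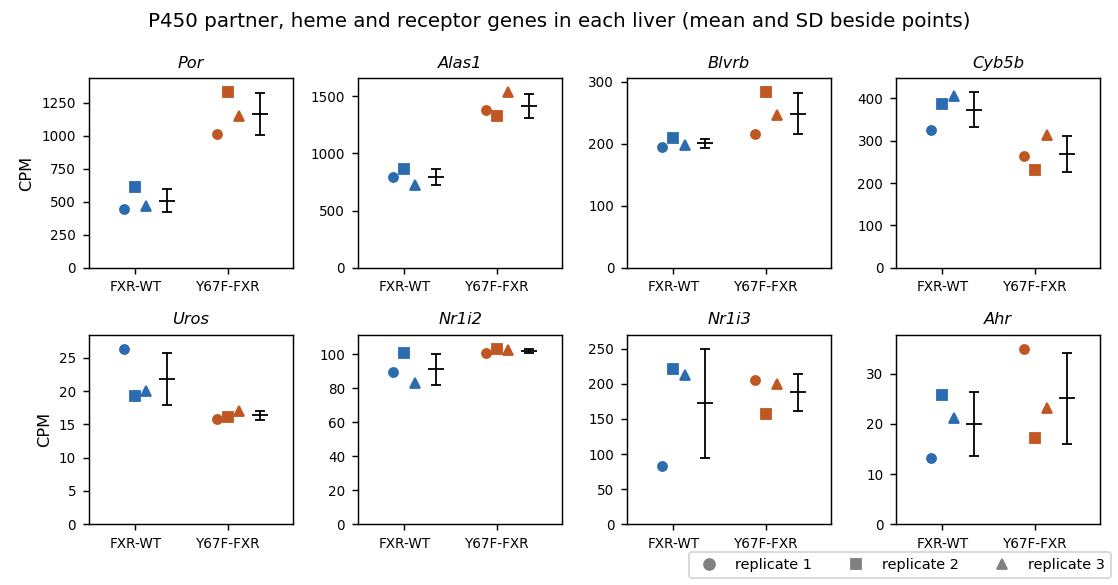
CPM in each liver (linear axes from 0) of Por, Alas1, Blvrb, Cyb5b, Uros and the receptors Nr1i2, Nr1i3 and Ahr, with marker shapes for the replicate number and a dash and bar for the mean and SD of each group. The groups are far apart for Por (means of 508 and 1164 CPM) and Alas1 (791 and 1412 CPM) and overlap for the 3 receptors.

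Of the 15 regulators of P450 genes 14 were tested and 0 were called by edgeR or DESeq2 (0.972% of all tested genes were called by edgeR), with a median log2 fold change of 0.10. At an unadjusted p below 0.05, which 13.4% of all tested genes reached, there were 2 of the 14, Ppara at 0.58 (SE 0.20, edgeR adjusted p = 0.255), a receptor for fatty acids, and Onecut1 at -1.35 (SE 0.50, edgeR adjusted p = 0.289), a hepatocyte transcription factor. Without FXR-WT liver 3 Onecut1 was at -0.74 (edgeR adjusted p = 0.610). Nr1i2 stood at 0.16 with a 95% interval from -0.11 to 0.44, and Ahr at 0.33 with a 95% interval from -0.39 to 1.04. Ahr was at 0.014 without Y67F-FXR liver 1 and at 0.094 without FXR-WT liver 1. Nr1i3 stood at 82.7, 222 and 212 CPM in FXR-WT livers 1 to 3 and at 205, 157 and 200 CPM in Y67F-FXR livers 1 to 3. FXR-WT liver 1 was the lowest here too, and the log2 fold change was 0.12 with all livers and -0.21 without that liver.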

How the data were processed

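Liver RNA of the 6 mice was sequenced by the authors as paired-end reads of 100 bases. Per the labels and file headers, the authors used Trimmomatic 0.36, STAR 2.5.3a and featureCounts 1.4.6-p4 on UCSC mm9 genes and deposited raw counts per gene. Counting was unstranded over exons, took each read of a pair singly and left out reads that map to several places or genes. A deposited table of the authors' own comparison (log2 fold change, mean log2 CPM, p-value and false discovery rate) was not used.

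Counts were analysed with edgeR 4.0.16 in R 4.3.3 by trimmed-mean scaling, filterByExpr, glmQLFit and glmQLFTest on group alone over all 12453 genes that passed, with Benjamini-Hochberg adjustment. Calls needed an adjusted p below 0.05 and a fold above 1.5. DESeq2 1.42.0, other scalings and filters, an offset for gene length (loess span 0.3), a replicate block and leaving out each liver were tried as alternatives. On simulated counts of 12320 genes, 96% of 200 genes changed by 2 on the log2 scale were recovered, and 5.88% of the calls were false. That change is larger than the fitted change of every tested P450 gene (-1.65 to 1.83). The share recovered therefore does not tell how often changes of the sizes seen here would be called. No count test was run on sums over a subfamily.

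Values in every liver are given for each tested P450 gene with an unadjusted p below 0.05 and for the gene with the highest level per kilobase in a subfamily. Of the regulator, electron transfer and heme lists, Nr1i2, Nr1i3, Ahr, Por, Alas1 and genes with an unadjusted p below 0.05 were named. Values in every liver of Cyp2b9, Nr1h4, Nr1i3, Por and Alas1, and the fitted values of further P450 genes, were added after they had been seen. The P450 genes and the gene lists were chosen with earlier results of these data known. Replicates were compared by chi-square over genes, with medians between 2.211 and 7.84, so each liver was kept as 1 sample. Transcripts of GENCODE M21 matched 59 of the 61 genes, and coding sequences stood in for proteins, which were not used here.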

Additional observations from a re-analysis of the deposited data

How the results depend on the processing

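The number of P450 genes called lower was 1, and it was 4 with DESeq2's Wald test, 2 without the filter on low counts and 2 with the gene length offset. The number called higher was 0, and 1 with DESeq2. Leaving out any 1 liver gave 0 lower. Over all genes 121 were called (53 lower and 68 higher), 431 with DESeq2, 247 with the length offset and 9 to 66 with a liver left out, of which the lowest was without FXR-WT liver 3. Scaling by library totals alone gave 68 lower and 52 higher. The median log2 fold change of the tested P450 genes stayed between -0.07 and 0.16 under all alternatives.

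The labels number the livers 1 to 3 in both groups. Deviations of same-numbered livers correlated at -0.517, -0.08 and 0.121. FXR-WT livers 1 and 3 correlated best with Y67F-FXR livers 2 and 1 (0.537 and 0.578). Genes of up to 1598 bases deviated alike within these pairs, at 0.20 and 0.22 and at -0.18 and -0.20 (median, log2). The part of gene length in the correlations was not tested, so they cannot tell whether same-numbered mice were handled together. The numbers were not taken as pairs in the main fit. With the replicate number as a block, 0 P450 genes were called lower and 8 of all genes were called, and with block and length offset 0 P450 genes were called lower and 93 of all genes were called. In the block alone Cyp2c67 had a log2 fold change of -0.77, Por 1.20 and Alas1 0.84, none called, and with the length offset added Por was called at 1.21 (edgeR adjusted p = 0.0264).

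Of 464 values of 31 named genes, 427 kept direction and side of the threshold, 21 lost a call, 6 gained one and 10 changed sign, all with a liver left out and none of them called. Most of the 427 are values of uncalled genes that stayed uncalled. The 21 lost calls all fall on Cyp2c67, Por and Alas1, which kept their call in 7, 10 and 7 of 15 alternatives. One of these alternatives, no fold minimum, used the main fit, so its values could not differ. Over the livers left out, log2 fold changes ranged from -0.071 to 0.36 for Cyp2e1 and from -0.21 to 0.35 for Nr1i3, both below 0 only without FXR-WT liver 1. The range was -0.22 to 0.060 for Cyp1a2 (above 0 without FXR-WT livers 2 or 3 or Y67F-FXR liver 2), -0.51 to 0.15 for Cyp2s1 (above 0 without FXR-WT liver 2 or Y67F-FXR liver 2) and -0.42 to 0.23 for Cyp1b1 (above 0 without FXR-WT liver 3 or Y67F-FXR livers 2 or 3). The cause was not tested. The median of the regulators ran from 0.02 to 0.18 with a liver left out. With 3 livers a group, the 95% intervals of Cyp2e1 and Cyp3a11 reach log2 changes of 0.72 and 0.74, and that of Cyp1a1, near 1 CPM, runs from -1.40 to 1.09.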
